A study of Homo sapiens with 6 samples.

Results

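The 40 genes described here make, carry and load amino acids: 19 cytosolic aminoacyl-tRNA synthetases, 9 amino acid transporters and 12 enzymes of amino acid synthesis and conversion. They were found on the array by gene symbol, after older names such as AARS were updated to current ones, and all 40 were measured, by 50 of the 31741 probes and among 18336 genes. Gene expression was profiled on 1-colour Human OneArray slides in TFK-1, an established cell line from a human extrahepatic cholangiocarcinoma (ECCA), with 3 arrays of HOXA5 overexpression and 3 of normal control. HOXA5 is a homeobox transcription factor, and the comparison asked which transcripts differ when its level is raised. TFK-1 cells of the study were grown in RPMI-1640 with 10% FBS and received lentivirus at a multiplicity of infection of 20 for 24 h. After 2 days in complete medium, 1 µg/ml of puromycin was applied to obtain stable lines. The study's methods give the HOXA5 construct as Flag-tagged, with a negative control virus for each construct, whereas the array labels say only normal control. Whether a line came from 1 clone or from a pool is not given in the sources used here. No label states that replicate samples were cultured separately, so the spread behind each p-value may be technical.

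Aminoacyl-tRNA synthetases join each amino acid to its transfer RNA, the step that sets which residue the ribosome adds. When amino acids run short, uncharged tRNA activates the kinase GCN2 (EIF2AK4), and when proteins misfold in the endoplasmic reticulum, the kinase PERK (EIF2AK3) is activated. Both phosphorylate the initiation factor eIF2 alpha, which lowers general translation but raises translation of the transcription factor ATF4. With C/EBP partners, ATF4 binds composite elements near its targets, which include asparagine synthetase, several transporters and many cytosolic synthetases.

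Letters of that element, TGATGNAA, were searched on both strands (TTNCATCA on the other) in RefSeq promoter windows of GRCh38.p14, from 250 bases before to 50 after a gene's start. The windows are 300 bases long, and 33 of the 40 genes had at least 1, with 51 windows in all. The genes YARS1, VARS1, LARS1, SLC7A11, GPT2, PSPH and PYCR1 had no entry. Of the 51 windows 15 held the letters (29.4%), compared with 3.62% of all 35116 windows. Counted by gene, 15 of 33 members (45.5%) and 4.46% of 27305 genes had them in any window. The share describes the group, in which known ATF4 targets are common, and a match shows neither binding nor the cause of a change. Runs of 30 bases from 10 of these windows are shown because the genes carrying them went in different directions, with the matched letters in capitals and each run written 5′ to 3′ along the gene's own strand.

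ASNS, chr7:97872458-97872487, minus strand: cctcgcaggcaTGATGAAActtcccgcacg
GOT1, chr10:99430804-99430833, minus strand: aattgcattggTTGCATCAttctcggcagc
AARS1, chr16:70289675-70289704, minus strand: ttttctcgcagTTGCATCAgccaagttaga
CARS1, chr11:3057407-3057436, minus strand: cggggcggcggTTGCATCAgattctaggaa
SLC1A4, chr2:64989381-64989410, plus strand: gcggctcccgtTTGCATCAtctccagccgg
SLC7A1, chr13:29595663-29595692, minus strand: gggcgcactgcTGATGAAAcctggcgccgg
NARS1, chr18:57621804-57621833, minus strand: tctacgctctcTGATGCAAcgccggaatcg
IARS1, chr9:92293692-92293721, minus strand: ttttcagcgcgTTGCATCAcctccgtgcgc
MARS1, chr12:57488053-57488082, plus strand: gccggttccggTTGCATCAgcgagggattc
TARS1, chr5:33440956-33440985, plus strand: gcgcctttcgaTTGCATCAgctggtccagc

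The first 6 of these genes rose with HOXA5 overexpression, NARS1 fell, and IARS1, MARS1 and TARS1 did not pass the test. The same 8 letters, TTGCATCA, stand in GOT1, AARS1, CARS1 and SLC1A4, which rose, and in IARS1, MARS1 and TARS1, which did not pass. NARS1 carries TGATGCAA, the reverse complement of those letters. In ASNS the match begins 68 bases before the start, in GOT1 198 bases before and in AARS1 187 bases before, while those of the other 7 lie within 22 bases of it.

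Before the amino acid genes, HOXA5 was read in every sample as a check of the labels. The probe with the higher mean had normalized log2 intensities of 7.10, 7.27 and 6.85 on control arrays 1, 2 and 3 against 9.09, 8.97 and 8.97 on HOXA5 arrays 1, 2 and 3, a rise of 1.94 ± 0.12 (SE; limma, adjusted p = 0.000766). A further HOXA5 probe fell by 0.34 ± 0.07 (limma, adjusted p = 0.0253), and where either probe lies relative to the construct is not given in the sources used here. Median raw intensity was 126 to 180 on the control arrays against 95 to 177 on the HOXA5 arrays, with the lowest value on HOXA5 array 3. Of the biliary epithelial markers, KRT19, EPCAM, SOX9 and KRT8 were above the dim level on all 6 arrays, with KRT8 at a raw intensity of only 103 to 281, and KRT7 on 5. Among 10 markers of other cell types, PTPRC, CD3E, COL3A1 and ALB were dim on all arrays and 5 were not dim on any. The summed normalized intensity of the 10 was 2591 to 3106 on the control arrays against 3518 to 4669 on the HOXA5 arrays, where ACTA2 rose by 0.65 and APOA1 by 0.89 (log2). That of the 5 biliary markers was 55360 to 59622 in the controls and 72572 to 77913 with HOXA5. In RNA from bulk cells, a different number of cells of a type and a different amount of RNA per cell cannot be told apart, and the part of these markers in the results below was not tested.

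Across the 40 genes, 12 rose and 2 fell with HOXA5 overexpression, and 26 did not pass the test. A gene is said to have risen or fallen at an adjusted p under 0.05 (limma on log2 intensity with an offset of 50, quantile normalized, Benjamini-Hochberg over all 31741 probes), and changes are log2 fold changes of HOXA5 over control ± SE with n = 3 arrays per group. Of all 18336 genes 13.1% rose and 11.0% fell, so 30% of the members rose against 13.1% and 5% fell against 11.0%. Above the dim level on all 3 arrays of a group were 39 of the 40 members but 12754 of the 18336 genes. The shares of all genes given throughout therefore include dim genes that the members mostly lack. When dim probes were left out, 2238 of 12754 genes rose and 2041 fell, beside 12 and 3 members. At the 2-fold threshold that the methods state, 6 members were higher (PCK2, GOT1, SLC7A11, AARS1, SLC38A2 and ASNS) and 0 lower, and 3.83% of all genes were that much higher. Leaving out 1 array at a time gave 8 to 10 members that rose. Of the members 1 fell without control array 1, 2 or 3 or HOXA5 array 1, and 4 fell without HOXA5 array 2. The calls among all genes moved as well, from 1387 to 2797 that rose and from 1073 to 2624 that fell. Both were lowest without control array 1 and highest without HOXA5 array 2. The members' median change was 0.10, beside -0.01 over all genes. By role, 3 of 19 synthetases (15.8%), 4 of 9 transporters (44.4%) and 5 of 12 enzymes (41.7%) rose. In the same order, 1, 0 and 1 fell. The synthetases' share was near the 13.1% of all genes, and the difference between roles was not tested. The medians of these groups were -0.05, 0.21 and 0.10.

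**Figure D1:**
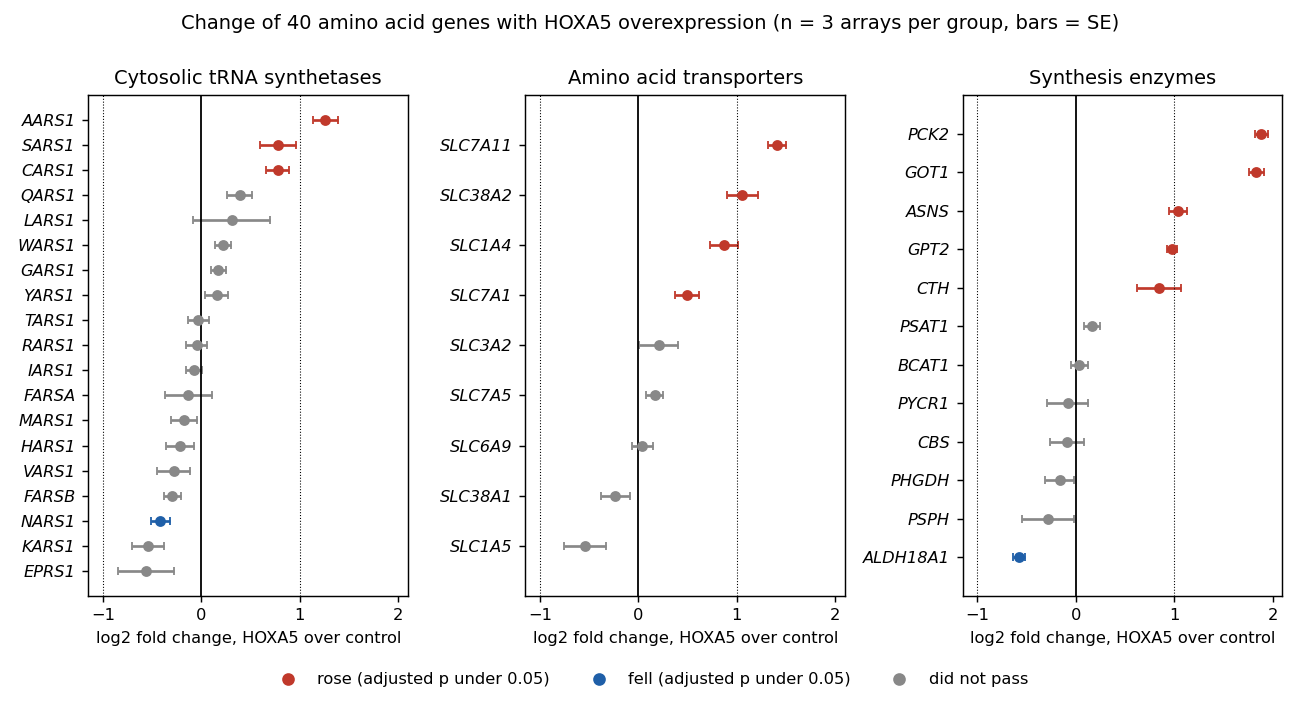
Log2 fold change of HOXA5 over control (x axis) for each of the 40 genes, in 3 panels by role; points are the limma estimates, bars the SE, dotted lines a 2-fold change and colours the call at an adjusted p under 0.05. The synthetases run from -0.56 to 1.26, with 15 of 19 in grey, whereas PCK2 and GOT1 lead the enzymes at 1.89 and 1.83.

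The largest rises were in enzymes that handle carbon and nitrogen between the citric acid cycle and amino acids. PCK2, the mitochondrial form of phosphoenolpyruvate carboxykinase, read 12.18, 12.29 and 12.26 on the control arrays against 14.20, 14.04 and 14.15 on the HOXA5 arrays (normalized log2 intensity, replicates 1, 2 and 3). Its change of 1.89 ± 0.07 (limma, adjusted p = 0.000243) was the largest of the 40, and its other probe, with 10.26, 10.55 and 10.15 against 12.06, 11.80 and 11.43, rose by 1.44 ± 0.19 (limma, adjusted p = 0.00582). The groups did not overlap on either probe.

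GOT1, the cytosolic aspartate aminotransferase, read 13.63, 13.49 and 13.44 on the control arrays against 15.42, 15.37 and 15.27 on the HOXA5 arrays. It rose by 1.83 ± 0.08 (limma, adjusted p = 0.000344). The mitochondrial enzyme for the same reaction, GOT2, went the other way and fell by 0.58 ± 0.12 (limma, adjusted p = 0.023). That gene was chosen after its values were seen, and its adjusted p lay between 0.0562 and 0.0823 when control array 1, 2 or 3 or HOXA5 array 1 or 3 was left out.

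GPT2, the mitochondrial alanine aminotransferase, had the smallest SE of the 40. It read 9.40, 9.47 and 9.41 on the control arrays against 10.37, 10.43 and 10.42 on the HOXA5 arrays, a rise of 0.98 ± 0.05 (limma, adjusted p = 0.000584). GPT, its cytosolic counterpart, was dim on 2 of the 6 arrays and had a change of 0.05 ± 0.13 (chosen after its values were seen).

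ASNS, which makes asparagine from aspartate with glutamine as the amide donor, had raw intensities of 32601, 33733 and 29249 on the control arrays against 65513, 59453 and 56154 on the HOXA5 arrays. It rose by 1.04 ± 0.09 (limma, adjusted p = 0.00178). HOXA5 array 1 was saturated on this probe, so the value there is a lower limit.

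CTH, cystathionine gamma-lyase, forms cysteine from cystathionine in the transsulfuration pathway. It had a low signal, at 7.28, 7.26 and 7.31 on the control arrays and at 8.63, 7.77 and 7.995 on the HOXA5 arrays, and HOXA5 array 1 stood well above the other two. The rise of 0.85 ± 0.22 (limma, adjusted p = 0.0491) was close to the threshold, and without control array 1, 2 or 3 or HOXA5 array 3 the adjusted p was 0.0962 to 0.146. CBS, the enzyme one step before it, ranged from 7.61 to 7.67 on the control arrays and from 7.28 to 7.93 on the HOXA5 arrays, a change of -0.09 ± 0.17. CBS has a near-identical copy, CBSL, so its value is uncertain.

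In the serine and proline branches no enzyme rose. PHGDH, PSAT1 and PSPH, which convert a glycolytic intermediate to serine in 3 steps, had changes of -0.16 ± 0.15, 0.17 ± 0.08 and -0.28 ± 0.27. Their adjusted p-values in limma were 0.519, 0.237 and 0.542, and the 95% intervals ran from -0.53 to 0.20, from -0.04 to 0.38 and from -0.94 to 0.38. The other PSAT1 probe had a change of 0.38 ± 0.13 (limma, adjusted p = 0.0979). ALDH18A1, which starts proline synthesis from glutamate, read 10.51, 10.60 and 10.57 on the control arrays against 10.04, 9.92 and 9.99 on the HOXA5 arrays. It fell by 0.58 ± 0.06 (limma, adjusted p = 0.00263; 0.0526 with the authors' values) with no overlap. PYCR1, which completes that synthesis in mitochondria, had a change of -0.08 ± 0.21. BCAT1, the cytosolic branched-chain aminotransferase, was dim on all 6 arrays by both of its probes, so no change could be read from it.

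Among the transporters, the cystine carrier rose most. SLC7A11, the light chain of the cystine and glutamate exchanger xCT, read 12.24, 12.13 and 11.95 on the control arrays against 13.57, 13.55 and 13.44 on the HOXA5 arrays, a rise of 1.41 ± 0.09 (limma, adjusted p = 0.000833). Its other probe was dim on all 6 arrays. The heavy chain shared by SLC7A11 and SLC7A5, SLC3A2, ranged from 14.04 to 14.53 on the control arrays and from 14.30 to 14.87 on the HOXA5 arrays and had a change of 0.21 ± 0.20, with a 95% interval from -0.29 to 0.71. SLC7A5, the light chain of the leucine transporter LAT1, had a change of 0.17 ± 0.09 (limma, adjusted p = 0.251).

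SLC38A2 (SNAT2), a sodium-coupled carrier of small neutral amino acids, read 14.24, 13.96 and 14.23 on the control arrays against 15.37, 14.90 and 15.33 on the HOXA5 arrays. It rose by 1.05 ± 0.16 (limma, adjusted p = 0.00818). Its relative SLC38A1 had a change of -0.23 ± 0.15 on the probe used and of -1.02 ± 0.29 on its other detected probe (limma, adjusted p = 0.342 and 0.0616). In the mean of both probes SLC38A1 fell (-0.63 ± 0.15, adjusted p = 0.0295).

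SLC1A4 (ASCT1), an exchanger of alanine, serine, cysteine and threonine, read 8.97, 9.26 and 9.14 on the control arrays against 9.74, 10.21 and 10.03 on the HOXA5 arrays. The rise was 0.87 ± 0.14 (limma, adjusted p = 0.0116), and without control array 1 the adjusted p was 0.0507. Its paralogue SLC1A5 (ASCT2), a glutamine carrier, had HOXA5 arrays 1 and 3 at 11.82 and 11.74 and array 2 at 12.42, against 12.32 to 12.65 on the control arrays. Its change of -0.54 ± 0.21 did not pass (limma, adjusted p = 0.136), and without HOXA5 array 2 it passed at -0.76 ± 0.12 (adjusted p = 0.0143).

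SLC7A1 (CAT1), a carrier of arginine and lysine, read 9.43, 9.60 and 9.48 on the control arrays against 10.21, 9.98 and 9.78 on the HOXA5 arrays. The rise of 0.49 ± 0.12 (limma, adjusted p = 0.0422) was the smallest among the 12 and did not pass in 10 of 16 alternatives. The adjusted p was 0.0683 to 0.145 when control array 1, 2 or 3 or HOXA5 array 1 or 2 was left out. SLC6A9 (GlyT1), a glycine transporter, had a change of 0.04 ± 0.11.

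**Figure D2:**
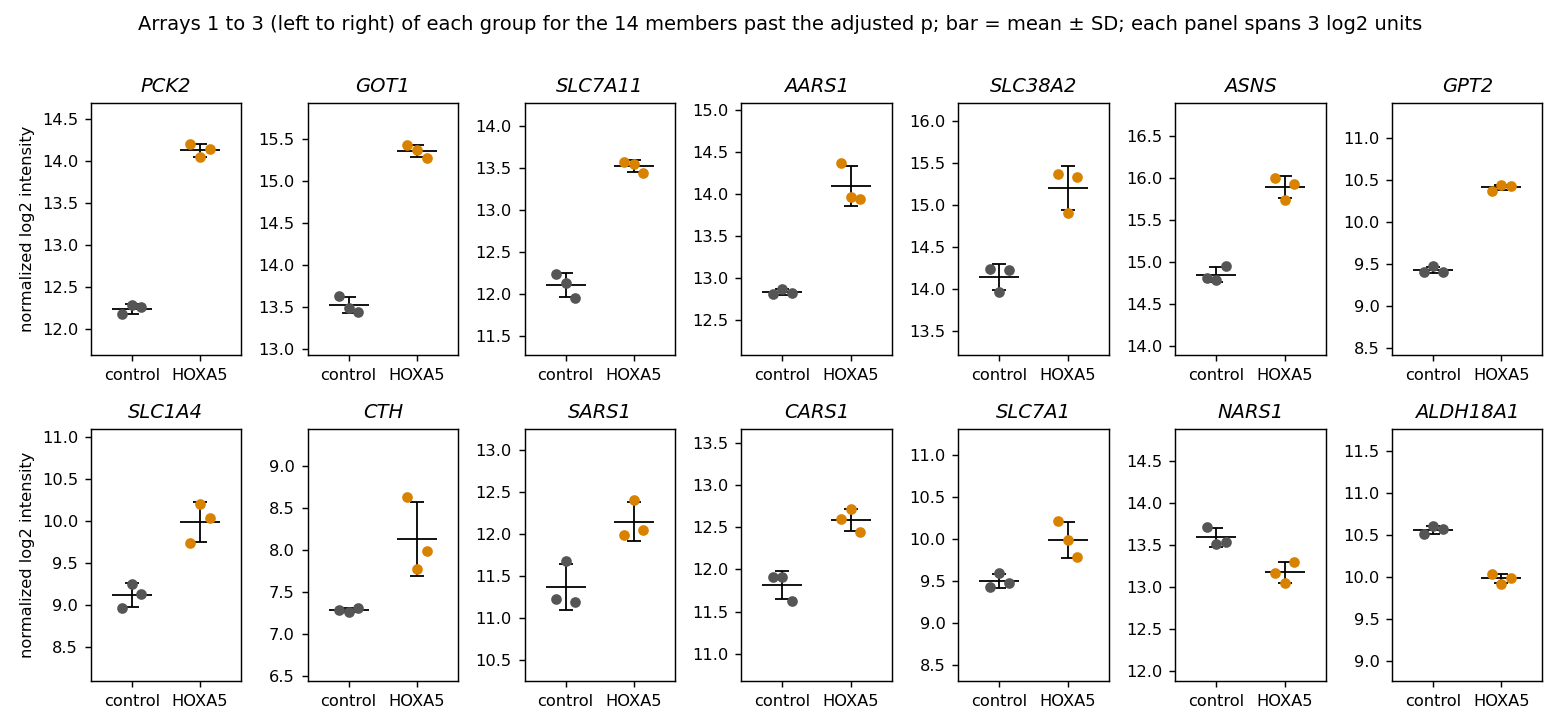
Normalized log2 intensity (y axis, each panel spanning 3 log2 units) on the 3 control and 3 HOXA5 arrays of the 14 members past the adjusted p, with arrays 1 to 3 from left to right in each group and black bars for mean ± SD. The groups do not overlap in any of the 14 panels, and HOXA5 array 1 of CTH lies at 8.63, above 7.77 and 7.995 on the others.

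Most of the cytosolic synthetases did not pass the test, and 3 rose. AARS1, the alanyl-tRNA synthetase, read 12.81, 12.87 and 12.82 on the control arrays against 14.37, 13.97 and 13.94 on the HOXA5 arrays, a rise of 1.26 ± 0.13 (limma, adjusted p = 0.00262). CARS1, for cysteine, read 11.91, 11.91 and 11.63 against 12.60, 12.72 and 12.45 and rose by 0.77 ± 0.11 (limma, adjusted p = 0.00795). AARS1 was the only one of the 19 above a 2-fold change, and CARS1 did not pass with the authors' values (adjusted p = 0.137).

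SARS1, for serine, read 11.23, 11.68 and 11.19 on the control arrays against 11.98, 12.41 and 12.05 on the HOXA5 arrays, with replicate 2 highest in both groups. It rose by 0.78 ± 0.18 (limma, adjusted p = 0.034), but the adjusted p was 0.0506 to 0.124 without control array 1 or 3 or HOXA5 array 1, 2 or 3. NARS1, for asparagine, read 13.72, 13.51 and 13.54 against 13.17, 13.05 and 13.31 and fell by 0.42 ± 0.09 (limma, adjusted p = 0.0319). Without control array 1, 2 or 3 or HOXA5 array 1 its adjusted p was 0.0692 to 0.0982. The synthetase for asparagine was thus lower on the same arrays where ASNS, which makes asparagine, was higher.

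None of the 7 synthetases that belong to the cytosolic multisynthetase complex passed: EPRS1, IARS1, KARS1, LARS1, MARS1, QARS1 and RARS1. They had a median of -0.08. Of all genes 13.1% rose and 11.0% fell, which in a set of 7 comes to few genes. Of the 12 synthetases outside the complex 3 rose and 1 fell, and the difference between these sets was not tested. KARS1, for lysine, came closest of the 7: its HOXA5 arrays, at 13.84, 14.33 and 13.95, all lay below the controls at 14.75, 14.59 and 14.40, a change of -0.54 ± 0.16 (limma, adjusted p = 0.0687). Without HOXA5 array 2 KARS1 passed at -0.68 ± 0.12 (adjusted p = 0.0181). QARS1, for glutamine, was higher on every HOXA5 array, at 12.59, 12.46 and 12.23 against 12.02, 12.20 and 11.90, and its change of 0.39 ± 0.12 did not pass (limma, adjusted p = 0.0876).

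EPRS1, the fused enzyme for glutamate and proline, and LARS1, for leucine, had wide intervals, from -1.27 to 0.15 and from -0.66 to 1.28, which include a 2-fold change. In both, HOXA5 array 2 was the lowest of the 6, at 10.98 for EPRS1 and 12.61 for LARS1. Control array 2 was likewise the lowest of the controls, at 11.89 and 12.75. IARS1, MARS1 and RARS1, for isoleucine, methionine and arginine, had changes of -0.08 ± 0.08, -0.18 ± 0.13 and -0.05 ± 0.11. The other MARS1 probe had a change of -0.44 ± 0.18 and the other RARS1 probe one of -0.04 ± 0.06, and neither passed.

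The rest of the synthetases outside the complex lay between -0.30 and 0.22. WARS1, YARS1 and GARS1, for tryptophan, tyrosine and glycine, had changes of 0.22 ± 0.08, 0.16 ± 0.12 and 0.17 ± 0.08, and TARS1, for threonine, one of -0.03 ± 0.11. The other TARS1 probe scattered widely on the same arrays, with an SE of 0.63 around -0.05, and the other WARS1 probe had a change of 0.29 ± 0.29. VARS1, HARS1, FARSA and FARSB, for valine, histidine and the 2 chains of the phenylalanine enzyme, had changes of -0.28 ± 0.17, -0.22 ± 0.14, -0.13 ± 0.24 and -0.30 ± 0.09. In FARSB the groups did not overlap (limma, adjusted p = 0.0663). Over all 40 members the groups did not overlap in 19 (47.5%), beside 41.4% of all genes, so that share is near the background. Of 13 synthetases listed as known ATF4-responsive genes, 3 rose (23.1%), 1 fell (7.69%) and 9 did not pass, with a median of 0.16, beside 13.1% and 11.0% of all genes. Of the 6 synthetases outside that list 0 rose and 0 fell. The list was drawn up with earlier results of these data known, so neither count is read as a result.

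The mitochondrion has synthetases of its own, most of them encoded by separate genes. Of 16 measured, 2 rose (12.5%), 4 fell (25%) and 10 did not pass, with a median of -0.23. The share that rose was near the 13.1% of all genes, and 11.0% of all genes fell. YARS2, for tyrosine, read 12.53, 12.53 and 12.38 on the control arrays against 11.26, 11.46 and 11.37 on the HOXA5 arrays and fell by 1.11 ± 0.08 (limma, adjusted p = 0.00102). FARS2, for phenylalanine, fell by 0.82 ± 0.14 (limma, adjusted p = 0.0126). LARS2, for leucine, was dim on all 3 HOXA5 arrays and fell at an adjusted p of 0.00868 (limma). From a mean of 7.66 on the control arrays to one of 6.72, it was at least 1.68-fold lower, set against the higher of the lowest value not called dim and its own value on each HOXA5 array. EARS2, for glutamate, fell by 0.55 ± 0.10 (limma, adjusted p = 0.0146), and without control array 1 or HOXA5 array 1 its adjusted p was 0.0653 or 0.0506. Both that rose, PARS2 and WARS2, named after their values were seen, lost their calls when single arrays were left out (PARS2 without control array 1, 2 or 3 or HOXA5 array 3, WARS2 without any array other than HOXA5 array 3), at adjusted p-values of 0.0568 to 0.119. A second WARS2 probe rose by 0.38 ± 0.10 with all arrays (limma, adjusted p = 0.0451).

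Set side by side for the same amino acid, 13 pairs of genes with a shared name had a cytosolic and a mitochondrial enzyme measured. In 0 of the 13 pairs did both pass, and in 9 the cytosolic change was the higher of the pair. With 13.1% of all genes risen and 11.0% fallen, few pairs of genes would both pass, and neither count is read as a result. The difference within a pair was not tested, and the pairs described next were chosen after their values were seen. For tyrosine, YARS1 had a change of 0.16 without passing and YARS2 fell by 1.11. For alanine and cysteine it was the cytosolic gene that passed: AARS1 and CARS1 rose, while AARS2 had a change of -0.14 ± 0.17 and CARS2 one of -0.26 ± 0.12. For asparagine the values were nearly equal, -0.42 for NARS1 and -0.44 ± 0.12 for NARS2 (limma, adjusted p = 0.051).

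**Figure D3:**
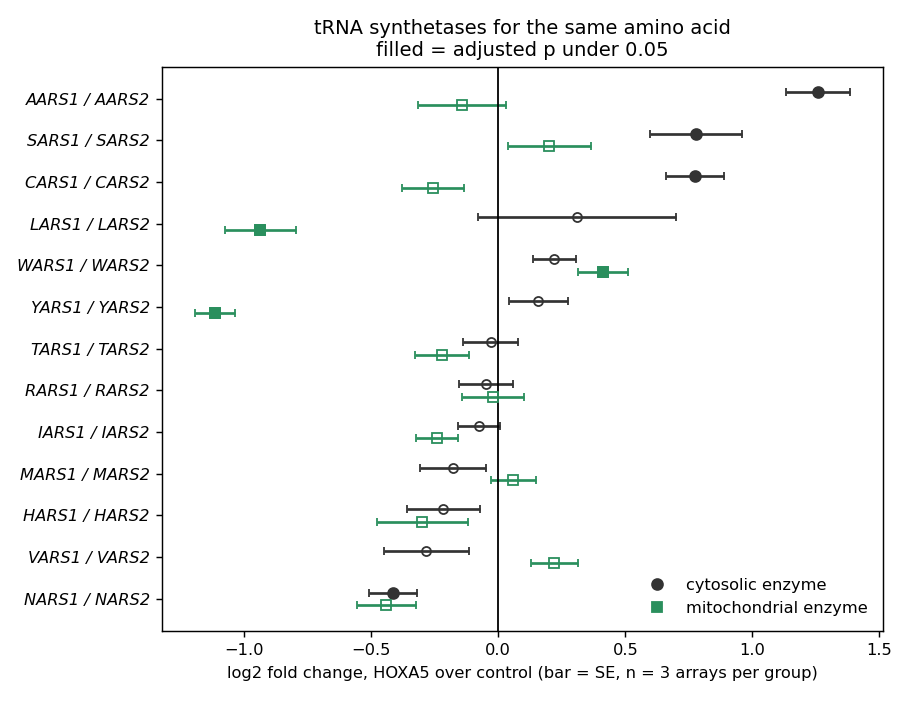
Log2 fold change of HOXA5 over control (x axis) for 13 pairs of synthetase genes that serve the same amino acid, with circles for the cytosolic and squares for the mitochondrial enzyme, bars for the SE and filled marks for an adjusted p under 0.05. AARS1, SARS1 and CARS1 are the filled circles on the right, YARS2 and LARS2 the filled squares on the left, and LARS2 is drawn at its measured value although it was dim on the HOXA5 arrays.

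Outside the 40 genes, 4 further cytosolic charging genes, including the complex scaffolds AIMP1 and AIMP2 (named after their values were seen), gave 0 that rose and 0 that fell (limma, lowest adjusted p = 0.127), although a second AIMP1 probe rose by 0.31 ± 0.06 (adjusted p = 0.0244). With 13.1% of all genes risen and 11.0% fallen, few of 4 genes would pass, and this count is not read as a result. Of 26 further amino acid transporters, each read by its brightest probe, 3 rose and 3 fell, 11.5% each, below or near the 13.1% and 11.0% of all genes. SLC1A1 (EAAT3), a carrier of glutamate, aspartate and cysteine, read 10.16, 10.14 and 10.10 against 11.34, 11.18 and 11.37 and rose by 1.17 ± 0.07 (limma, adjusted p = 0.000722). SLC38A5 fell by 1.21 ± 0.17 (limma, adjusted p = 0.00672). The taurine transporter SLC6A6 rose by 0.78 ± 0.15 (limma, adjusted p = 0.0172), with an adjusted p of 0.071 or 0.06 without control array 1 or 2. Another SLC6A6 probe had a change of 0.35 that did not pass, and the remaining one was dim on all 6 arrays. SLC38A7 fell by 0.72 ± 0.14 (limma, adjusted p = 0.0203), with adjusted p-values of 0.0575 to 0.08 when control array 1 or 2 or HOXA5 array 1 or 3 was left out. On another probe SLC7A6 fell by 1.10 ± 0.08 and SLC38A10 by 1.31 ± 0.14 (limma, adjusted p = 0.00103 and 0.00322). Their brightest probes had changes of -0.35 and 0.28 and did not pass, nor did a further SLC38A10 probe at 0.04. Both genes were chosen after their values were seen.

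Of 19 further amino acid enzymes, 5 rose (26.3%) and 3 fell (15.8%), beside 13.1% and 11.0% of all genes. ASS1, argininosuccinate synthase, which joins citrulline to aspartate on the way to arginine, read 9.54, 9.76 and 10.06 on the control arrays against 12.20, 11.50 and 12.02 on the HOXA5 arrays, a rise of 2.12 ± 0.22 (limma, adjusted p = 0.00297). Both chains of the enzyme that commits branched-chain amino acids to breakdown were higher, BCKDHA by 1.69 ± 0.18 and BCKDHB by 0.88 ± 0.10 (limma, adjusted p = 0.0029 and 0.0039). On their other probes BCKDHA had a change of 1.15 ± 0.31 (adjusted p = 0.0539) and BCKDHB rose by 0.60 ± 0.08 (adjusted p = 0.00587). SHMT1, the cytosolic enzyme that interconverts serine and glycine, fell by 1.13 ± 0.14 (limma, adjusted p = 0.00509), and its mitochondrial counterpart SHMT2, chosen after its values were seen, had a change of 0.11 ± 0.09 on its brightest probe. On its other probe SHMT2 fell by 0.70 ± 0.16 (limma, adjusted p = 0.0325), so the probes disagreed.

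The ATF4 pathway itself was read from 18 genes, of which 7 rose (38.9%) and 3 fell (16.7%), beside 13.1% and 11.0% of all genes. DDIT3 (CHOP), a partner of ATF4, had raw intensities of 2959, 3370 and 2263 on the control arrays against 65513, 65509 and 54278 on the HOXA5 arrays. HOXA5 arrays 1 and 2 were saturated on its probe, so its measured rise of 4.52 (limma, adjusted p = 5.82e-05), the largest of the 18, is given without an SE and the values on those arrays are lower limits. CHAC1, which breaks down glutathione, ATF3 and the pseudokinase TRIB3 rose by 2.90 ± 0.22, 2.06 ± 0.06 and 1.97 ± 0.17 (limma, adjusted p = 0.00127, 0.000206 and 0.00172), more than any of the 40 amino acid genes. The following genes were chosen after their values were seen. The ATF4 transcript read 15.48, 15.48 and 15.72 on the control arrays against 15.77, 15.63 and 15.92 on the HOXA5 arrays. Its change of 0.22 ± 0.11 did not pass (limma, adjusted p = 0.232). Raw intensities on this probe were 48088 to 52910 on the control arrays and 53618 to 61466 on the HOXA5 arrays. These lie near saturation, so a larger rise may not have been readable there. Another ATF4 probe, at raw intensities of 723 to 1617, had a change of 0.09 ± 0.18 and did not pass (limma, adjusted p = 0.794). The kinase of the amino acid branch, EIF2AK4, fell by 0.68 ± 0.07, and that of the endoplasmic reticulum branch, EIF2AK3, rose by 0.87 ± 0.11 (limma, adjusted p = 0.00317 and 0.00493). ATF5 fell by 0.76 ± 0.10 (limma, adjusted p = 0.00533). CEBPB and CEBPG rose by 1.46 ± 0.12 and 1.17 ± 0.09 (limma, adjusted p = 0.00149 and 0.00111). Arrays measure transcripts, so neither kinase activity nor ATF4 protein was read here.

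Returning to the promoter letters, 6 of 10 members that rose and have a window held TGATGNAA, and 9 of the 23 others did. The 6 are the genes printed above, whereas PCK2, SLC38A2, CTH and SARS1 rose with no match in their windows, and SLC7A11 and GPT2 rose with no window in the table. Besides IARS1, MARS1, TARS1 and NARS1, the letters stood in GARS1, SLC3A2, SLC38A1, SLC1A5 and BCAT1. The E-box letters CACGTG, which read the same on both strands and are bound by MYC and MAX family proteins, stood in windows of 5 members, namely IARS1, ALDH18A1, BCAT1, SLC7A5 and SLC1A5. These are 15.2% of members with a window, beside 8.77% of all genes. Counted by window, 9.80% of the members' 51 held the letters, beside 7.26% of all 35116. Of the 10 that rose 0 had them, but at 8.77% few of 10 genes would, so that count is not read as a result. No match of E-box letters overlapped a TGATGNAA match.

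**Figure D4:**
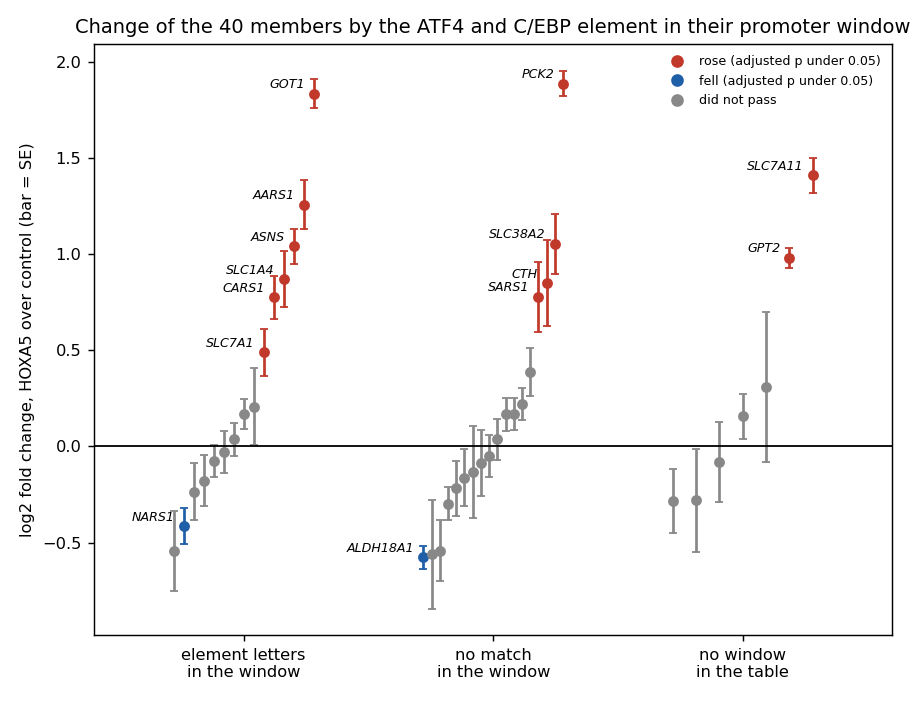
Log2 fold change of HOXA5 over control (y axis, bars = SE) of the 40 genes, split by whether TGATGNAA or its reverse complement stands in a RefSeq promoter window, with colours for the call. Genes with the letters run from -0.54 to 1.83, those without from -0.58 to 1.89, so the ranges overlap almost fully.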

How the data were processed

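Cy5-labelled RNA was hybridized to Human OneArray slides and read with an Agilent scanner. The authors deposited each probe's raw intensity, linear, beside a flag and a detection p-value that was not used here. The meaning of the other flag values is not given in the sources used here: flag 0 began at a raw intensity of 58 to 67 by array, and the remaining probes are called dim. A second table that the authors made, with GeneSpring per the methods, holds the same intensity times 1 constant per array and served as an alternative.

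Here, log2 of raw intensity plus an offset of 50 was quantile normalized, and limma 3.58.1 in R 4.3.3 (lmFit, then eBayes; two-sided) fitted all 31741 probes without filter or covariate. The steps were tested on simulated data. Benjamini-Hochberg adjustment covered every probe. The methods' threshold for a call adds a log2 change of at least 1. The offset understates changes of dim genes. Saturation was taken from a raw intensity of 65000. The number of arrays limits the precision.

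By the platform annotation 24740 probes carried 1 symbol, 977 several and 6024 none; 1953 symbols were updated through RefSeq synonyms. For GARS, MARS, QARS and SARS, which also are synonyms of other genes, the current gene with the same name and a 1 was taken. Where a gene had several probes, the one brightest on average over the 6 arrays was used. Levels were not compared between probes.

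The members and lists were chosen with earlier results of these data known. Named were all 40 members, HOXA5, other detected probes of members and up to 4 called genes per further list by size of change; for others the text states a choice after seeing values. Some genes of the lists are not reported here. Alternatives were other scalings, offsets, filters, variance models, a replicate block, the mean of a gene's detected probes and leaving out each array.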

Additional observations from a re-analysis of the deposited data

How the results depend on the processing

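Each count and each of the 40 changes was recomputed under 16 alternatives, except that BCAT1 has 15, with no value when dim probes were left out. AARS1, ASNS, GOT1, GPT2, PCK2, SLC38A2 and SLC7A11 kept their call in all 16, and none of the 14 members that passed turned direction. The authors' values, which called fewer genes in all (1062 rose and 1047 fell, against 2399 and 2010), ended the calls of CARS1 (adjusted p = 0.137), SARS1 (0.169), SLC7A1 (0.35), CTH (0.186) and ALDH18A1 (0.0526), and, at 0.0557 to 0.700, those of EARS2, FARS2, PARS2, WARS2, SLC7A8, SLC38A5, SLC38A7, SLC38A9, MTHFD2, GOT2, BCKDHB, MAT2A and EIF2AK2 outside the 40. With them 1 member fell, 1 synthetase rose, 0 synthesis enzymes fell, 0 mitochondrial synthetases rose and 2 fell, 0 of the other transporters fell and 2 of the other enzymes rose. Median scaling gave 4 members that fell, 2 synthetases and 1 transporter among them, and 0 mitochondrial synthetases that rose. The 75th percentile gave 2 synthetases that fell and 0 mitochondrial ones that rose. With array weights 5 members fell, of which 3 were synthetases and 1 a transporter, and 5 of the other transporters. Without dim probes 2 synthetases fell. With trend and robust variance 1 mitochondrial synthetase rose. The mean of detected probes gave 1 transporter that fell and 5 of the other transporters. KARS1 fell under both scalings, with array weights and without dim probes, SLC1A5 with median scaling and array weights, FARSB with array weights, and KARS1 and SLC1A5 without HOXA5 array 2. The causes were not tested.

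Leaving out 1 array at a time gave 8 to 10 members that rose and 1 to 4 that fell, 0 to 2 synthetases that fell, 2 to 4 transporters that rose and 0 to 1 that fell. Among all genes it gave 1387 to 2797 that rose and 1073 to 2624 that fell. In the further lists it gave 0 to 1 mitochondrial synthetases that rose, 0 to 2 other charging genes that fell, 1 to 4 other transporters that rose and 1 to 5 that fell, and 1 to 3 other enzymes that fell. Of the members that had not passed, 8 with a change close to 0 turned direction. Leaving out single arrays, their ranges were -0.36 to 0.036 for FARSA, -0.13 to 0.025 for RARS1, -0.13 to 0.029 for TARS1, -0.038 to 0.13 for SLC6A9, -0.29 to 0.064 for PYCR1, -0.28 to 0.051 for CBS and -0.041 to 0.10 for BCAT1. SLC7A5 was -0.030 with median scaling, -0.0095 with the 75th percentile and -0.045 with the authors' values.

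The groups share replicate numbers, and deviations of same-numbered arrays correlated at -0.10, 0.60 and 0.65 for replicates 1, 2 and 3. Those of unlike-numbered arrays ran from -0.70 (control array 3 with HOXA5 array 2) to 0.38 (control array 3 with HOXA5 array 1). The main fit left the numbers out, and whether they mark arrays handled together was not tested. With the replicate block 12 members rose and 2 fell; QARS1 rose (adjusted p = 0.0481) and SLC7A1 did not pass (0.0584). It called 2690 genes higher and 2551 lower. An alternative chosen after seeing the data left out GARS1, MARS1, QARS1 and SARS1, whose older names are shared, and gave 11 members that rose and 2 that fell.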
